A study of Mus musculus with 6 samples.

Results

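The genes described here encode the proteins of the cytosolic ribosome. They were taken from the deposited expression table by symbol: Rpl or Rps followed by a digit, together with Rplp0, Rplp1, Rplp2 and Rpsa. Names with "-ps" (148 entries) and the ribosomal S6 kinases (10 entries) were left out. This gave 91 members of 24413 genes, of which 54 carry Rpl names (large, 60S subunit) and 37 carry Rps names (small, 40S subunit). The symbol rule also took in Rps19bp1, a protein that binds S19 and is not itself a ribosomal protein. It further took in retrotransposed copies such as Rps27rt, Rpl37rt, Rpl6l and Rpl32l, and 6 members are annotated as processed pseudogenes. The ribosomal proteins Fau and Rack1 have other symbols and were followed with the related genes.

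The 40S subunit reads the mRNA and the 60S subunit joins amino acids. The proteins of each are made in the cytoplasm, carried into the nucleolus and assembled there on ribosomal RNA. Their mRNAs are abundant and stable and start with a 5′ terminal oligopyrimidine (5′TOP) tract, through which mTORC1 signalling acts mainly on how well they are translated. Fibroblasts, which secrete collagen in bulk, depend on this machinery as all dividing and secreting cells do.

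Libraries of poly-A RNA were sequenced from cells of mouse Achilles tendon. The 3 conditioned libraries came from cells kept for 24 h in medium conditioned by dorsal root ganglion (DRG) cultures, which hold sensory neurons and their companion cells, and the 3 control libraries from cells kept in medium with 1% FBS. The cells of both groups came from male mice aged 12 weeks (3 mice in all) of the genotype Tppp3ECE/+;R26RtdT-CreERT2;ScxGFP, in which the Tppp3 locus drives the inducible recombinase and tdT marks the lineage, and they were sorted with GFP and tdT gates. The ganglia came from 3 male C57BL/6J mice aged 12 weeks and were grown for 4 to 5 days with 5-fluoro-2-deoxyuridine and uridine (20 µM each) before the change to 1% FBS medium, which was harvested daily, filtered and frozen. Released factors, use of the medium by the cultures and residue of the drugs cannot be told apart. No label says which animal or culture a library came from, so the p-values rest on the spread among 3 libraries a group, and that spread may be technical. In bulk RNA, fewer cells of a type and less RNA per cell cannot be told apart.

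The table holds FPKM (fragments scaled by gene length and by library), from which whole fragments could be recovered. The libraries held 21755895, 18772889 and 23459905 fragments in conditioned replicates 1, 2 and 3, and 23156615, 26059058 and 19952584 fragments in control replicates 1, 2 and 3. Tppp3 itself was low, at 0.777 to 1.12 FPKM in conditioned and 0.724 to 1.05 FPKM in control libraries, and the tendon transcription factor Scx stood at 11.1 to 12.0 FPKM in conditioned and 12.7 to 13.8 FPKM in control libraries. Although the mice are labelled male, Xist, the RNA of the inactive X chromosome, had 19.5 to 22.3 FPKM in conditioned and 20.0 to 26.5 FPKM in control libraries. The Y-linked Ddx3y was also present, at 2.71 to 2.90 FPKM in conditioned and 2.74 to 3.01 FPKM in control libraries, so the pattern did not separate the groups.

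Some annotated start sites show the beginning of such a tract and others do not. The windows below were taken from RefSeq (GRCm38.p6) on the strand of the gene, with 15 bases before and 15 bases from the annotated start, and capitals mark the unbroken run of C and T that begins with C at the annotated start. Rps18 is shown because it was the member that passed the test. Rps6, Rpl15, Rpl35, Rpl38 and Rplp2 are shown as further members with a run, whose values are given below, Rps27 and Rps27rt as a gene and its copy, and Rplp0 as an abundant member with no such run in the entry.
Rps18: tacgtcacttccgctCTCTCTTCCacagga
Rps6: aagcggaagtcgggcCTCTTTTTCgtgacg
Rpl15: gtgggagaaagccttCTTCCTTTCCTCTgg
Rpl35: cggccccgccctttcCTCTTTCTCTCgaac
Rpl38: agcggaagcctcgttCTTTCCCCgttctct
Rplp2: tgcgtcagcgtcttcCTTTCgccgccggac
Rps27: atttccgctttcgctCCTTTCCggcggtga
Rps27rt: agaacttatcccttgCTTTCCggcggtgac
Rplp0: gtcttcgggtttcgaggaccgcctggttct
These lie at chr17:33955651-33955680, chr4:86857353-86857382, chr14:18270972-18271001, chr2:39005117-39005146, chr11:114668565-114668594, chr7:141447636-141447665, chr3:90213634-90213663, chr9:114982725-114982754 and chr5:115559452-115559481, in the order printed. The Rpl38, Rplp2 and Rplp0 windows are on the plus strand and the other 6 on the minus strand.

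The search asked for a C at the annotated start followed by at least 4 bases that are each C or T, on the strand of the gene only. Of 67 members with a promoter entry, 15 (22.4%) had it, against 798 of 26958 other genes (2.96%). When the run could begin up to 10 bases to either side, 40 members (59.7%) and 34.3% of the other genes had one. An annotated start is often some bases away from the used one, and the absence of a run says only that these letters are not in the window. The 14 tested members with a run at the start had a median log2 fold change (conditioned minus control) of 0.15, and the 48 tested members without one had 0.11, a description with no test. Rps6, the 40S protein that the S6 kinases phosphorylate, had 377, 379 and 379 FPKM in conditioned replicates 1, 2 and 3 and 355, 337 and 368 FPKM in control replicates 1, 2 and 3. Its conditioned libraries were nearly level and all above the controls, with a log2 fold change of 0.10 ± 0.04 (SE) that did not pass (limma adjusted p = 0.190). Rpl35 (147 to 187 FPKM in conditioned and 132 to 152 FPKM in control libraries) and Rpl15 (107 to 114 FPKM in conditioned and 90.97 to 109 FPKM in control libraries) overlapped between the groups and did not pass either.

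Most members were among the most abundant mRNAs of these cells. Of the 86 members that averaged 1 FPKM or more across all 6 libraries, 18 had a mean over 300 FPKM, 44 lay between 100 and 300, 21 between 10 and 100 and 3 under 10. Rplp1, an acidic protein of the P stalk that recruits elongation factors, was the highest, with 1765, 1660 and 1629 FPKM in conditioned replicates 1, 2 and 3 and 1341, 1613 and 1653 FPKM in control replicates 1, 2 and 3. The groups overlapped, with control replicate 1 low. Rplp0, which anchors the stalk to the 60S subunit, followed with 1056, 1075 and 1018 FPKM in conditioned libraries and 977, 969 and 1038 FPKM in control libraries. Rps3a1 averaged 679 ± 2.75 FPKM in conditioned and 659 ± 44.8 FPKM in control libraries (SD, n = 3 each here and below). Rps2, which lines the mRNA entry channel, and Rps15 came next, and Rpl41, the smallest ribosomal protein, Rpl4, Rpl36, Rpl19 and Rps4x complete the 10 highest, down to 428 ± 4.07 FPKM in conditioned and 422 ± 20.8 FPKM in control libraries for Rps4x.

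**Figure D1:**
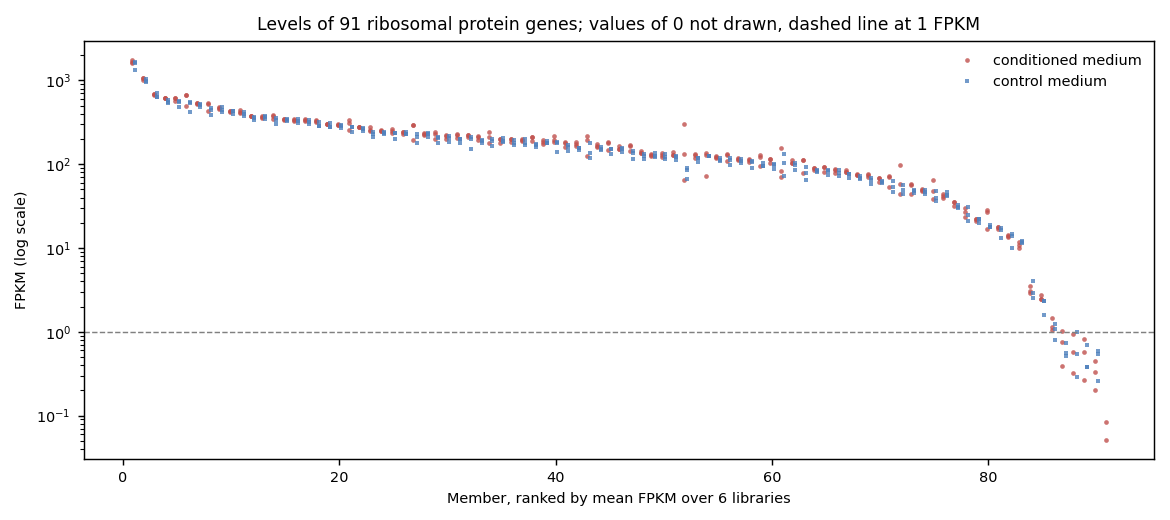
FPKM (log axis) of each member in each library, with members ranked by their mean over the 6 libraries, conditioned libraries as circles and control libraries as squares. The highest value is 1765 FPKM for Rplp1, and the 5 members right of rank 86 had a mean under 1 FPKM.

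At the low end, 5 members did not reach a mean of 1 FPKM and were not tested. Rpl3l, the striated muscle paralog of Rpl3, had at most 0.0839 FPKM in a conditioned library and was listed at 0 in all control libraries. Rpl39l, known from the male germ line, had 0.205 to 0.448 FPKM in conditioned and 0.259 to 0.596 FPKM in control libraries. The paralog Rpl36al and the copy Rpl32l reached 1.02 and 0.932 FPKM in the highest conditioned library, and 0.732 and 0.994 FPKM in the highest control library. Rpl24, a core 60S protein, had only 0.268 to 0.827 FPKM in conditioned and 0.376 to 0.703 FPKM in control libraries, and 47.0% of its exon bases are shared on the same strand with another annotated gene (GENCODE, mm10). Rps10 (1.05 to 1.47 FPKM in conditioned and 0.801 to 1.25 FPKM in control libraries) shares 20.6% of its exon bases in this way and Rpl13a (16.7 to 17.8 and 13.2 to 17.4 FPKM) shares 35.4%. Rpl36al, which is annotated as protein coding, shares 24.5%. How fragments in shared exons were assigned is not given in the sources used here, so the low levels of these genes may not be those of the mRNAs.

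After 24 h in conditioned medium the ribosomal protein genes had slightly higher fold changes than all genes, and almost none passed the test singly. Conditioned replicates 1 and 2 and control replicates 1 and 2 carried the shift, and replicate 3 of the media did not: the median member lay 0.00386 log2 units above its gene's mean in conditioned replicate 3 and 0.0136 above it in control replicate 3. Of 86 tested members, 1 rose, 0 fell and 85 did not pass (limma, Benjamini-Hochberg adjusted p below 0.05 over 11678 genes). Over all tested genes 4.04% rose and 2.49% fell. The log2 fold change (conditioned minus control, on the log2(FPKM + 1) scale) was above 0 for 81 members and below 0 for 5, with a median of 0.13 and an interquartile range of 0.07 to 0.18, while all tested genes had a median of 0.01 with 52.0% above 0. Without control replicate 1 the member median was 0.08. All 3 conditioned libraries lay above all 3 control libraries for 22 members (25.6%), against 14.3% of all tested genes. For 0 members did the conditioned libraries lie below all controls, against 11.6% of all tested genes. At an unadjusted p below 0.05, 24 members (27.9%) were higher and 0 lower, against 11.2% of all tested genes higher. The members vary together between libraries, so their number is not a number of independent observations.

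**Figure D2:**
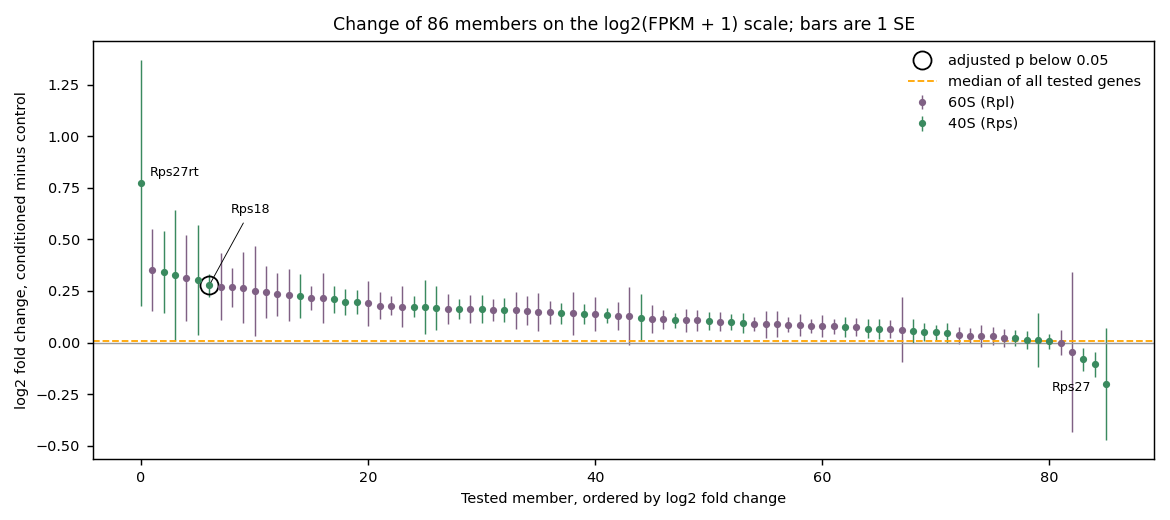
Log2 fold change, conditioned minus control, with 1 SE for the 86 tested members in order of size, 60S and 40S members in different colours, a ring for an adjusted p below 0.05 and a dashed line at the median of all tested genes. Most points sit above the dashed line, 81 are above 0, and the ringed gene is Rps18.

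The single gene that rose was Rps18, a protein of the 40S head that contacts the 60S subunit (chr17:33951999-33956001, minus strand, mm10). It had 212, 209 and 187 FPKM in conditioned replicates 1, 2 and 3 and 158, 168 and 174 FPKM in control replicates 1, 2 and 3. Each conditioned library was above each control library. Its log2 fold change was 0.28 ± 0.06 (SE; limma adjusted p = 0.0256). The call was lost without conditioned replicate 1 (adjusted p = 0.105), conditioned replicate 2 (0.118), control replicate 1 (0.0597) or control replicate 2 (0.0812), with log2 fold changes of 0.24 to 0.28. Without conditioned replicate 3, 6 members rose (6.98%, against 3.12% of all tested genes), and without control replicate 3, 3 did (3.49%, against 3.44%).

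A test on the recovered whole fragments (limma-voom) called 10 members higher (11.6%) and 0 lower, against 5.58% of all tested genes higher. These were Rps2, Rps3 and Rps9 of the mRNA entry channel, Rps16, Rps18, Rps19, Rps24, Rplp2, Rpl18 and Rpl27, most of them outside the rule for named genes and listed after their values were seen. Rpl27, a 60S protein, shows the size of these differences: it had 183, 172 and 163 FPKM in conditioned replicates 1, 2 and 3 and 149, 154 and 155 FPKM in control replicates 1, 2 and 3. Its groups did not overlap, the log2 fold change was 0.18 ± 0.05 (SE), and it did not pass on FPKM (limma adjusted p = 0.0641) but did on fragments (limma-voom adjusted p = 0.0155). Rps2 had 620.2, 615 and 613 FPKM in conditioned libraries and 545, 552 and 591 FPKM in control libraries. Its conditioned libraries were nearly level and all above the controls (log2 fold change 0.13 ± 0.04 SE; limma adjusted p = 0.0843).

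**Figure D3:**
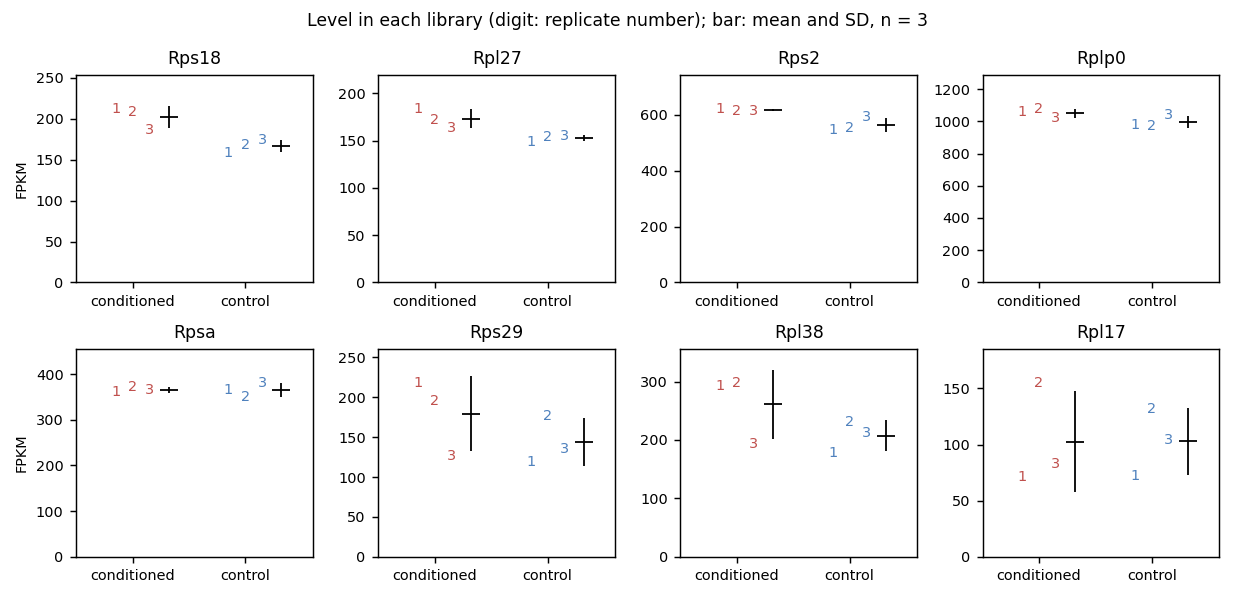
FPKM of 8 members in each library, conditioned left and control right, with digits for the replicate numbers and a bar for mean and SD (n = 3). Rps18, Rpl27 and Rps2 did not overlap between groups, Rplp0 and Rpsa did, and Rps29, Rpl38 and Rpl17 differed between libraries of the same medium by up to 2.18-fold.

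Grouped by place in the ribosome, the medians were close, and the calls of limma numbered 1 in all. The 49 tested 60S members had a median log2 fold change of 0.13. Of these, 0 were called by limma, 10 (20.4%) were higher at an unadjusted p below 0.05 and 3 (6.12%) were called by limma-voom. The 37 tested 40S members had a median of 0.12. Of these, 1 was called by limma, 14 (37.8%) were higher at an unadjusted p below 0.05 and 7 (18.9%) were called by limma-voom. The difference between the subunits was not tested. Among 18 proteins listed for the 40S mRNA channel and head, 1 rose, 18 had a fold change above 0 and the median was 0.14. The list is not complete, and Rps9 is not in it. Of these 18, 10 (55.6%) were higher at an unadjusted p below 0.05, 8 (44.4%) did not overlap between groups and 5 (27.8%) were called by limma-voom. Over all tested genes, 11.2% were higher at an unadjusted p below 0.05 and 14.3% did not overlap with conditioned higher. Limma-voom called 5.58% of all tested genes higher. The same shares stand beside the counts of the groups of members below. At the bottom of that group stood Rpsa, the laminin receptor homologue, at 0.01 ± 0.04 (SE) with 360.0, 373 and 366 FPKM in conditioned and 366, 350 and 380 FPKM in control libraries. At its top stood Rps28 at 0.34 ± 0.20 (SE; limma adjusted p = 0.44).

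Around the 60S exit tunnel, through which the new chain leaves, 0 of 10 members were called by limma or limma-voom, 2 had an unadjusted p below 0.05, and the median was 0.11. Rpl38, known in mice for its role in translation of Hox mRNAs, had 292, 297 and 193 FPKM in conditioned replicates 1, 2 and 3 and 178, 231 and 212 FPKM in control replicates 1, 2 and 3. Conditioned replicate 3 fell among the controls, and the log2 fold change of 0.31 ± 0.21 (SE) did not pass (limma adjusted p = 0.499). Rpl17 had 70.7, 154 and 82.7 FPKM in conditioned replicates 1, 2 and 3 and 72.3, 132 and 104 FPKM in control replicates 1, 2 and 3, so replicate 2 was the highest library of each medium.

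In the P stalk, 0 of 4 members were called by limma, 1 had an unadjusted p below 0.05 and 1 was called by limma-voom. That member was Rplp2, the partner of Rplp1, with 140.3, 130.4 and 128 FPKM in conditioned libraries and 111, 120.4 and 125 FPKM in control libraries (log2 fold change 0.16 ± 0.05 SE; limma adjusted p = 0.141). Rplp1 had a log2 fold change of 0.14 ± 0.08 (SE), Rplp0 of 0.08 ± 0.04 and Rpl12, at the base of the stalk, of 0.03 ± 0.04. Rpl5 and Rpl11, which travel with 5S ribosomal RNA and bind MDM2 when ribosome assembly is disturbed, did not pass (0.10 ± 0.04 and 0.16 ± 0.07 SE; limma adjusted p = 0.263 and 0.267). Rpl11 had 112, 103 and 102.5 FPKM in conditioned and 85.5, 97.6 and 102.3 FPKM in control libraries. Both members were at an unadjusted p above 0.05, and 0 of 2 were called by limma-voom.

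Of 19 tested members whose human counterparts are mutated in Diamond-Blackfan anaemia, 0 were called by limma, and the median was 0.14. At an unadjusted p below 0.05, 7 (36.8%) were higher, against 11.2% of all tested genes. Limma-voom called 4 (21.1%) higher, against 5.58%. Rps19, the gene most often mutated in this anaemia, had 86.04, 81.6 and 81.5 FPKM in conditioned and 68.1, 76.0 and 76.6 FPKM in control libraries. Its groups did not overlap, with a log2 fold change of 0.17 ± 0.05 (SE; limma adjusted p = 0.102; limma-voom adjusted p = 0.0198).

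Among 16 tested paralogs, related genes and their parents, 0 were called by limma, and the median was 0.05. The list also holds Rps19 and Rps19bp1, which are not a paralog pair. At an unadjusted p below 0.05, 2 (12.5%) were higher, against 11.2% of all tested genes. Limma-voom called 1 (6.25%) higher, against 5.58%, and that gene was Rps19. Rps27l, a p53 target, had 164, 154 and 154 FPKM in conditioned and 141, 152 and 158 FPKM in control libraries. Rpl22l1 had 14.4, 13.8 and 13.6 FPKM in conditioned and 9.87, 14.03 and 14.7 FPKM in control libraries, against 61.3 to 69.3 and 59.3 to 63.9 FPKM of its parent Rpl22. Rpl7l1 lay at 20.8 to 22.4 FPKM in conditioned and 20.0 to 22.1 FPKM in control libraries. Without control replicate 1 the log2 fold changes of Rpl22l1 and Rpl7l1 turned to -0.04 and -0.01. The parents Rpl3, Rpl7, Rpl10, Rpl26, Rpl36a, Rpl39 and Rps4x had log2 fold changes between 0.02 and 0.17, and none of them passed. The 5 lowest fold changes belonged to Rps27 (-0.20), Rps19bp1 (-0.11), Rps4l (-0.08), Rpl17 (-0.05) and Rpl29, a heparin-binding 60S protein (-0.0006).

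The 5 highest fold changes, Rps27rt (0.77), Rpl37rt (0.35), Rps28 (0.34), Rps27a (0.33) and Rpl38 (0.31), all had wide errors. Rps27a, which is made as a fusion with ubiquitin, had 58.5, 96.7 and 43.8 FPKM in conditioned replicates 1, 2 and 3. In control replicates 1, 2 and 3 it had 44.3, 49.2 and 57.2 FPKM. A single library, conditioned replicate 2, was high. Rps28 had 111, 113 and 78.5 FPKM in conditioned and 65.6, 92.5 and 79.2 FPKM in control libraries, so that conditioned replicate 3 was among the controls and control replicate 1 was the lowest.

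Rps27 and its copy Rps27rt stood apart in conditioned replicate 1. Rps27rt is a single-exon gene at chr9:114982366-114982739 (minus strand, mm10), and 341 aligned bases, 91.2% of its transcript, were 100% identical to Rps27, so a fragment from that stretch cannot be told apart between them. Rps27rt had 304, 133 and 65.2 FPKM in conditioned replicates 1, 2 and 3, a 4.66-fold range within 1 medium, and 91.3, 84.8 and 67.5 FPKM in control replicates 1, 2 and 3. Rps27 had 72.1, 138 and 128 FPKM in conditioned replicates 1, 2 and 3 and 124, 126 and 124 FPKM in control replicates 1, 2 and 3. Where the copy was highest, in conditioned replicate 1, the parent was lowest. Summed over both, the CPM (recovered fragments relative to the library total) were 189, 194 and 158 in conditioned replicates 1, 2 and 3 and 164, 164 and 156 in control replicates 1, 2 and 3. Without conditioned replicate 1 the log2 fold change of Rps27 was 0.09 in place of -0.20.

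**Figure D4:**
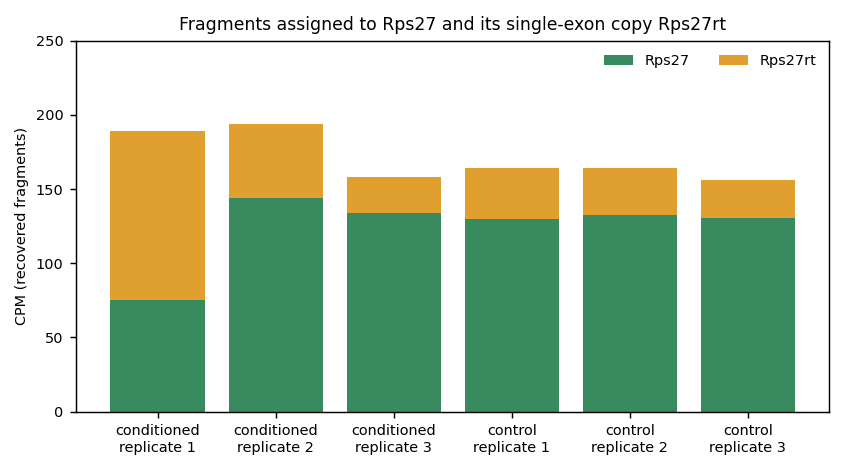
CPM (recovered fragments relative to the library total) assigned to Rps27 and Rps27rt in each library, stacked, conditioned libraries on the left and control libraries on the right. On this scale the copy stood at 114 of a sum of 189 in conditioned replicate 1, and at 24.4 to 49.9 in the other 5 libraries.

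Other copies were near-identical too. Rpl37rt was 99.7% identical to Rpl37 over the aligned bases, Rpl6l 98.7% to Rpl6, Rps3a2 99.5% and Rps3a3 98.9% to Rps3a1, and Rpl32l 96.0% to Rpl32. The aligned bases were 50.4% of the Rpl37rt transcript and 100% of those of Rpl6l, Rps3a2 and Rps3a3. Values of these pairs are uncertain to the extent that fragments fall in stretches without a difference. The 148 "-ps" entries that the rule left out summed to 2424, 2376 and 2435 FPKM in conditioned libraries and 2159, 2134 and 2359 FPKM in control libraries, beside 19997, 19782 and 18260.4 FPKM of the members in conditioned and 16634, 17873 and 18593 FPKM in control libraries.

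The members took 3.20%, 3.20% and 3.00% of all fragments in conditioned replicates 1, 2 and 3 and 2.75%, 2.91% and 3.06% in control replicates 1, 2 and 3. The conditioned mean was 3.14 ± 0.115% and the control mean 2.91 ± 0.156%. The ranges overlapped, because conditioned replicate 3 was below control replicate 3. As a share of summed FPKM, the members took 7.27%, 7.27% and 6.76% in conditioned replicates 1, 2 and 3 and 6.27%, 6.72% and 6.88% in control replicates 1, 2 and 3.

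Within each medium the members moved up and down together. Relative to each gene's mean over the 6 libraries, the median member stood at 0.10, 0.08 and 0.00386 log2 units in conditioned replicates 1, 2 and 3 and at -0.13, -0.05 and 0.01 in control replicates 1, 2 and 3. All other tested genes had medians between -0.002 and 0.005 in these libraries. Conditioned replicate 3 was the lowest conditioned library for 63 of 86 members, and control replicate 1 the lowest control library for 60. The median standard deviation within groups was 0.0882 log2 units for members and 0.0744 for other tested genes, most of which were under 10 FPKM. At matched levels the members' median standard error of the log2 fold change was larger, at 0.0595 against 0.0388 for other genes between 100 and 300 FPKM and 0.0463 against 0.0360 over 300 FPKM.

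**Figure D5:**
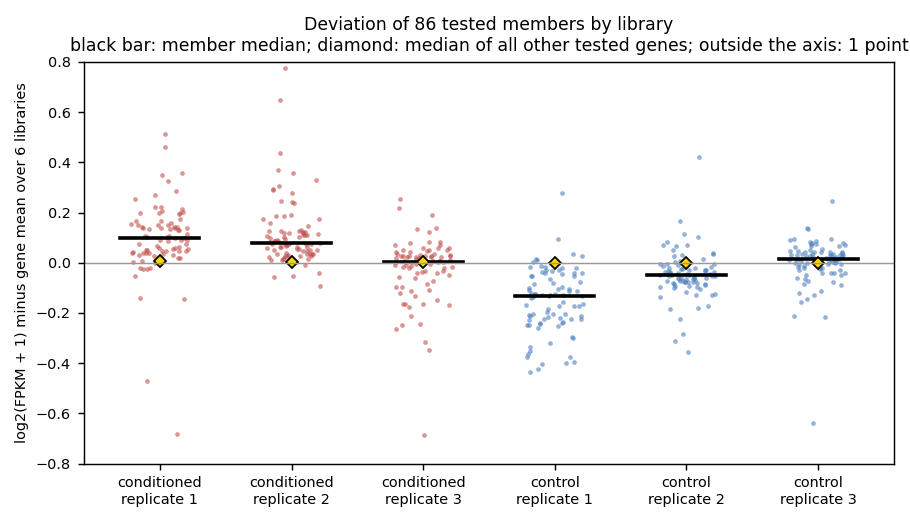
Deviation of each tested member from its own mean over 6 libraries, in log2(FPKM + 1) units, conditioned libraries left and control libraries right, with the member median as a bar and the median of all other tested genes as a diamond. Conditioned replicates 1 and 2 lie above the diamonds, control replicates 1 and 2 below, and replicate 3 of both media at about 0.

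The pattern by library was compared across gene lengths, as recovered from the FPKM values. For 18 members under 1000 bases the median deviations were 0.15, 0.12 and -0.06 in conditioned replicates 1, 2 and 3 and -0.21, -0.03 and 0.01 in control replicates 1, 2 and 3. The 989 other genes under 1000 bases stood at 0.05, 0.03 and -0.02 in conditioned and -0.06, 7.55e-05 and 0.01 in control libraries. The median log2 fold change was 0.17 for the members under 1000 bases and 0.03 for the other genes of that length, 0.13 and 0.01 between 1000 and 2000 bases, 0.09 and 0.003 between 2000 and 4000 bases, and 0.17 and 0.003 over 4000 bases. The 6 members over 4000 bases deviated by 0.14, 0.09 and 0.04 in conditioned replicates 1, 2 and 3 and by -0.19, -0.07 and -0.01 in control replicates 1, 2 and 3, while the 5987 other genes of that length had medians between -0.02 and 0.02. Across the 86 members, Spearman's rho of the fold change was -0.10 with length, -0.03 with GC content and -0.11 with level, over genes that share the same libraries. With the length and GC trend of each library removed, the member median was 0.09 and 5 members rose (5.81%, against 4.82% of all tested genes). Mitochondrial genes took 1.23%, 1.36% and 1.37% of fragments in conditioned and 1.54%, 1.32% and 1.37% in control libraries, highest in control replicate 1, where the members were lowest. The part of RNA quality in the members' levels was not tested.

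Translation factors were followed next. Over all tested genes, 4.04% rose, 2.49% fell and 19.6% had an unadjusted p below 0.05 in either direction, and limma-voom called 5.58% higher. Of 35 tested initiation factors, 1 rose and 0 fell, 4 had an unadjusted p below 0.05 and limma-voom called 2 higher. A fold change above 0 was found for 24 of the 35, and the median was 0.03. The gene that rose was Eif4b, a cofactor of the helicase eIF4A and a substrate of the S6 kinases, with 115, 112 and 110 FPKM in conditioned libraries and 93.9, 97.0 and 95.2 FPKM in control libraries. Its groups stood well apart, the log2 fold change was 0.23 ± 0.03 (SE; limma adjusted p = 0.00454), and the call held under every alternative run. Of 12 tested elongation and termination factors, 0 were called by limma or limma-voom and 2 had an unadjusted p below 0.05. A fold change above 0 was found for 11 of the 12, and the median was 0.03. Eef2, which moves the ribosome along the mRNA, had 999, 988 and 997 FPKM in conditioned and 940.3, 905 and 951 FPKM in control libraries (log2 fold change 0.09 ± 0.03 SE; limma adjusted p = 0.134).

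The other messages known to carry a 5′TOP tract had a median between that of the members and that of all genes. Many of them, such as Eif4b and Eef2, are also in the lists of translation factors above. Naca and Btf3 recur among the quality control genes below, so the lists are not separate groups. Of 31 tested, 28 had a fold change above 0 and the median was 0.07. An unadjusted p below 0.05 was found for 10 of them, beside 19.6% of all tested genes. By limma 2 rose and 0 fell, and limma-voom called 3 higher. Those that rose were Eif4b and the histone chaperone Nap1l1 (50.9, 54.3 and 54.0 FPKM in conditioned and 48.2, 47.0 and 46.9 FPKM in control libraries; log2 fold change 0.16 ± 0.04 SE; limma adjusted p = 0.0453). The Nap1l1 call was lost when any single library was left out (adjusted p = 0.0542 to 0.178). Of the ribosomal proteins outside the symbol rule, Fau had 324, 328 and 307 FPKM in conditioned and 293, 306 and 318 FPKM in control libraries, and Rack1 had 174, 177 and 183 FPKM in conditioned and 169.6, 165 and 178 FPKM in control libraries. Neither passed the test.

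Genes of ribosome assembly, growth control and quality control were followed in the same way, beside 4.04% of all tested genes that rose and 2.49% that fell. An unadjusted p below 0.05 in either direction was found for 19.6% of all tested genes. Limma-voom called 1129 of 11678 genes, 652 of them higher. Of 62 tested biogenesis genes, 0 were called by limma or limma-voom and 3 had an unadjusted p below 0.05. Of the 62, 32 had a fold change above 0 and the median was 0.01. Of 19 tested genes of mTORC1 and growth control, 0 were called by limma or limma-voom and 2 had an unadjusted p below 0.05. Of 12 genes listed for p53, its regulators and its targets, with Gtf3a, 0 rose and 1 fell. This list is not particular to free 5S particles. A fold change above 0 was found for 2, and the median was -0.10. An unadjusted p below 0.05 was found for 5, and limma-voom called 3 lower. The gene that fell was Sesn2, a leucine sensor that restrains mTORC1, with 24.8, 24.5 and 23.6 FPKM in conditioned and 27.2, 29.7 and 28.0 FPKM in control libraries (log2 fold change -0.21 ± 0.04 SE; limma adjusted p = 0.0284). Among 25 tested chaperones and quality control genes at the ribosome, 0 rose and 1 fell, 4 had an unadjusted p below 0.05, and limma-voom called 1 higher and 1 lower. The gene that fell by limma was the translocon channel Sec61a1 (39.4, 38.0 and 40.6 FPKM in conditioned and 47.3, 45.3 and 46.0 FPKM in control libraries; -0.23 ± 0.04 SE; limma adjusted p = 0.0119). The Sesn2 call was lost without any 1 library other than control replicate 1 (adjusted p = 0.0651 to 0.101), and the Sec61a1 call without conditioned replicate 1 or 2 (adjusted p = 0.0548 and 0.0615).

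Other cell markers moved in the same libraries. Of 13 tested tendon fibroblast genes 9 fell and 0 rose, against 2.49% and 4.04% of all tested genes. Of the 13, 2 had a fold change above 0, and limma-voom called 1 higher and 9 lower. The list summed to 4321 to 4428 FPKM in conditioned and 5358 to 5489 FPKM in control libraries. Of 17 neuron genes listed, 12 were in the table and 1, Tubb3, was tested and fell, with sums of 18.7 to 19.6 FPKM in conditioned and 24.8 to 27.4 FPKM in control libraries. Of 9 glial genes 8 were in the table, 2 were tested and 1, Ncam1, fell, with sums of 12.9 to 15.4 FPKM in conditioned and 16.8 to 18.7 FPKM in control libraries. Some listed markers were at or near 0, while other genes of the same lists were higher. Sox10 was at 0 in 5 libraries. Ptprc reached 0.0093 FPKM in conditioned and 0.00271 FPKM in control libraries. Pecam1 reached 0.0512 FPKM in conditioned and 0.0830 FPKM in control libraries. Of 3 tested macrophage genes 0 were called by limma or limma-voom and 1 had an unadjusted p below 0.05. The macrophage and leukocyte list summed to 6.68 to 7.02 FPKM in conditioned and 6.63 to 7.75 FPKM in control libraries. Of 5 endothelial genes 1 was tested and fell, Tek. The endothelial list summed to 4.40 to 4.86 FPKM in conditioned and 5.73 to 6.52 FPKM in control libraries. Among 14 RNA quality genes 1 rose, the nuclear RNA Neat1 (log2 fold change 0.47), and 0 fell. Of the 14, 3 had a fold change above 0, the median was -0.15, 4 had an unadjusted p below 0.05 and limma-voom called 1 higher and 2 lower. The part of these differences in the members' levels was not tested.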

How the data were processed

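The deposited table holds FPKM values of 24413 genes, which the authors computed for 6 libraries. CASAVA, HISAT2 2.0.5 and the build mm10 are named in the submitters' processing notes. Which program counted, with which annotation and strand setting, is not given, so antisense and overlapping genes may share reads. Within a gene, FPKM values were whole multiples of 1 fragment within 0.01 fragment for 24413 genes. The recovered fragments gave size factors by the median of ratios, over 16925 genes above 0 in all libraries, that matched the deposited scale, whereas library fragment sums differed from it by up to 1.08%.

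The 11678 genes that averaged 1 FPKM or more entered a limma fit (version 3.58.1, R 4.3.3; mean-variance trend, robust prior, two-sided) on log2(FPKM + 1), with Benjamini-Hochberg adjustment over all of them at 0.05. Fold changes on this scale understate changes of low genes. The function was tested on simulated data. Coordinates and exon overlaps came from GENCODE vM21 (24403 IDs matched). Gene lengths were recovered from the FPKM values and equalled the GENCODE length for 23561 genes. They differed for some members, such as Rpl17 (775 bases recovered, 1327 in GENCODE). Copies were aligned with Biopython 1.88, and figures drawn with matplotlib 3.10.9 (Python 3.11.15, numpy 2.4.6, pandas 2.3.3).

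The members and gene lists were chosen with earlier results of these data known. Named genes were members past the threshold, the 10 most abundant, the 5 highest and 5 lowest fold changes, those under 1 FPKM, all of the stalk, 5S and paralog lists, and up to 6 past the threshold from each other list. Of 4 erythroid genes listed, 0 were found by symbol in the table, and they are not analysed here. Symbols turned into dates (23) and 22 entries sharing a symbol were kept under their gene IDs. The alternatives were other scalings, filters, a pseudocount of 0.1, a length and GC correction, limma-voom on the fragments, the replicate block and leaving out each library. Scaling to total fragments was chosen after seeing the data.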

Additional observations from a re-analysis of the deposited data

How the results depend on the processing

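The count of members called higher, 1 as reported, became 0 with no filter on low values, 3 with a mean of at least 5 FPKM (3.61%, against 6.60% of all genes), 4 with quantile normalization (4.65%, against 3.37%), 5 with the length and GC trend removed (5.81%, against 4.82%) and 10 with limma-voom (11.6%, against 5.58%), and it ranged from 0 to 6 when each library was left out in turn. The count called lower was 0 throughout. The pathway lists held 4 calls, 2 with no filter, 9 with the trend removed, 8 with limma-voom, and 1 to 4 when libraries were left out. Replicate numbers did not pair the libraries (correlations of same-numbered deviations -0.095, -0.008 and -0.048), and the replicate block gave 0 members and 1 pathway call. The median log2 fold change of the members stayed between 0.08 and 0.15, and the share of the library kept its direction.

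Signs turned for 11 of 40 named genes, none of which had passed. With the length and GC trend removed, Rps3a1 was at -0.0012, Rps4x at -0.015 and Rpl26 at -0.026. With quantile normalization, Rpl4 was at -0.0094, Rpl12 at -0.013 and Rpl10 at -0.013. With each library left out in turn, the values ran from -0.020 to 0.044 for Rps4x, -0.021 to 0.046 for Rpl26, -0.014 to 0.065 for Rpl7l1, -0.039 to 0.22 for Rpl22l1, -0.043 to 0.053 for Rpl29, -0.38 to 0.18 for Rpl17 and -0.37 to 0.090 for Rps27. The cause of these changes of sign was not tested, and neither was the part of counting error in them. Spread beyond counting error was described by a chi-square per degree of freedom between libraries of the same medium. Its mean was 24.0 to 71.1 for members and 3.14 to 7.02 over all genes compared. This measure grows with the number of fragments, and members have many.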
